A study of Mus musculus with 2 samples.

Results

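The genes described here move sodium, chloride and water across the airway lining. They were chosen by name: the 3 subunits of the epithelial sodium channel (Scnn1a, Scnn1b and Scnn1g), the chloride channel gene Cftr, the sodium pump subunit gene Atp1b1, the cotransporter gene Slc12a2 and the aquaporin genes Aqp3, Aqp4 and Aqp5. All 9 were found among the 22072 gene symbols of both tables, each as 1 transcript row whose FPKM estimate had the status OK. FPKM is the number of sequenced fragments scaled by transcript length and by library depth, so it allows levels of different genes to be compared.

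The depth and quality of the liquid on the airway surface depend on opposed ion flows. Sodium enters the cell at its apical face through the epithelial sodium channel, a complex of alpha, beta and gamma subunits, and leaves at the basolateral face through the sodium/potassium ATPase. Chloride enters at the basolateral face with sodium and potassium through Nkcc1, the product of Slc12a2, and leaves at the apical face through Cftr and other channels. Water follows the salt, in part through aquaporins, which differ in where they sit: Aqp5 is known from the apical membrane of alveolar type 1 and gland cells, and Aqp3 and Aqp4 from basolateral membranes of airway cells.

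RNA was sequenced from epithelial cells of adult mouse lung, sorted as Lin-, CD326+ (the product of Epcam) and CD24-intermediate, a gate meant to enrich airway secretory cells without cilia. All mice ate doxycycline food (625 mg/kg) for 16 days, and all carried tetOCre and both floxed alleles, Mst1-flx/flx and Mst2-flx/flx, of the Hippo pathway kinases. The control mice had no further allele. The mice labelled Mst1/2 D/D also carried Scgb1a1-rtTA, an activator made from the promoter of the club cell gene Scgb1a1. Doxycycline switches on tetOCre through this activator. RNA of 4 mice per genotype was pooled into 1 library, so the comparison is of 1 library with 1 library, without replicate error and without a p-value, and the activator, active Cre and the intended deletion cannot be told apart.

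Listed transcripts drew about 8770000 reads from the control pool and 8340000 from the other. The kinase genes Stk4 (Mst1; FPKM 5.38 and 4.71) and Stk3 (Mst2; 7.28 and 7.09) differed little, and the exons removed are not stated in the labels, so the second library goes by its label here. The sort markers were present, with Epcam at 28.2 and 31.0 and Cd24a at 127 and 116. Of club cell genes, Cyp2f2 had FPKM of 4694 and 5305, but Scgb1a1 itself is listed at 0 in both libraries with a failed estimate. The surfactant gene Sftpc of alveolar type 2 cells stood at 7888 and 10270, so the sorted cells held alveolar as well as airway transcripts, and a level given below cannot be assigned to 1 cell type. More cells of a type and more RNA per cell cannot be told apart in bulk RNA.

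A gene is called higher or lower where log2(FPKM + 1) of the pools differs by 0.58 or more, which is 1.5-fold. This scale understates the difference of low genes, so the plain FPKM ratio (labelled Mst1/2 D/D over control) is given with it. Among the 9945 genes that reached an FPKM of 1 in either pool (the measured genes), 3.02% were higher and 2.59% lower, 5.61% in all, and their median log2 difference was 0.07. After subtraction of this median the shares were 2.09% and 3.27%. After conversion to TPM, with the filter and pseudocount left at 1, they were 6.79% and 8.79% of 14070 genes. That setting thus also lets in lower genes and shrinks the pseudocount relative to them. All 9 transport genes passed the filter. Intervals after a ratio are 95% intervals for counting error only, on approximate reads, and do not cover differences between mice, sorts or library preparations.

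The sodium channel subunits and the aquaporin genes Aqp4 and Aqp5 had higher levels in the pool labelled Mst1/2 D/D, by 1.496- to 1.70-fold. The cotransporter gene Slc12a2 had a ratio of 1.33. The chloride exit channel Cftr and the pump subunit Atp1b1 differed least. Aqp3 alone among the 9 had a lower level. Counted by the threshold, 4 genes were higher (Scnn1a, Scnn1g, Aqp4 and Aqp5), 1 was lower (Aqp3) and 4 were neither. The median log2 difference of the 9 was 0.57. Scnn1b, at 0.57, lay just inside the limit for neither, and Aqp3, at -0.59, just past the limit for lower.

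**Figure D1:**
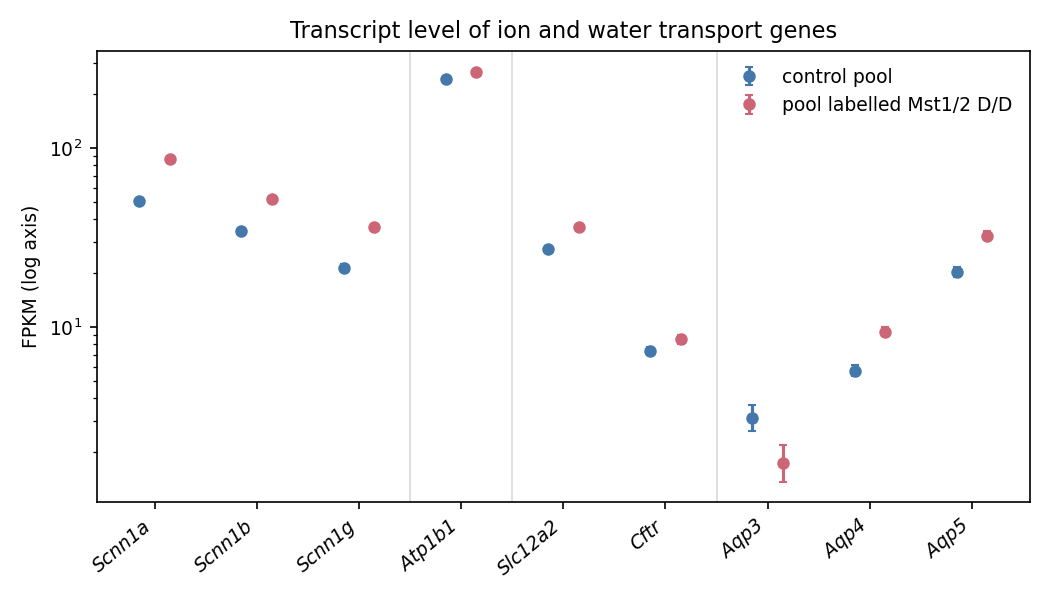
FPKM of each transport gene on a log axis, in the control pool (blue) and in the pool labelled Mst1/2 D/D (red), 1 library each; bars are 95% counting intervals and vertical lines separate sodium entry, sodium pump, chloride and water genes. Atp1b1 lies highest in both libraries (244 and 264) and Aqp3 lowest (3.12 and 1.74), and Aqp3 is the only gene whose red point lies below its blue point.

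The 3 sodium channel genes lie at 2 places in the genome. Scnn1a, the alpha subunit on which channel assembly depends, spans chr6:125271358-125294960 (mm9, as all positions from the tables). Scnn1g (chr7:128878021-128911991) and Scnn1b (chr7:129008625-129062030) are neighbours, 96.6 kb apart with 0 listed genes between them. Windows of 6 of the 9 genes were examined from the RefSeq promoter table (GRCm38.p6): Aqp3, Aqp5, Atp1b1, Cftr, Scnn1b and Scnn1g. Those of Scnn1a, Slc12a2 and Aqp4 were not examined, so motif counts of the transport genes cover these 6 only. The 250 bases before the start of the neighbouring channel genes are printed because the levels of both genes were higher together, and those of Aqp5 and Aqp3 because these aquaporin genes differed in opposite directions. The windows are Scnn1g chr7:121734229-121734478 (plus strand), Scnn1b chr7:121864788-121865037 (plus strand), Aqp5 chr15:99590778-99591027 (plus strand) and Aqp3 chr4:41098184-41098433 (minus strand), 5′ to 3′ on the gene's strand. Capitals mark GGGCGG or its reverse complement CCGCCC, the core of the GC box, and TATAAA on the gene's strand, the TATA box.
Scnn1g: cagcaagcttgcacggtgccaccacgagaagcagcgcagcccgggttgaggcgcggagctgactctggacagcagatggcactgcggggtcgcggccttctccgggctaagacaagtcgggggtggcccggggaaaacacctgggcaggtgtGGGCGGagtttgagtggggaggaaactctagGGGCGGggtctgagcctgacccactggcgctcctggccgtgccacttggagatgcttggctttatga
Scnn1b: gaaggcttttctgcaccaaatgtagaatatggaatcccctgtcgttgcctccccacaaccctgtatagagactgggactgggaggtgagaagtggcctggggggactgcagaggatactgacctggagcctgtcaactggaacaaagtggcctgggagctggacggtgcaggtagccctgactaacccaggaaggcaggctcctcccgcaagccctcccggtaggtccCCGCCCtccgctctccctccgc
Aqp5: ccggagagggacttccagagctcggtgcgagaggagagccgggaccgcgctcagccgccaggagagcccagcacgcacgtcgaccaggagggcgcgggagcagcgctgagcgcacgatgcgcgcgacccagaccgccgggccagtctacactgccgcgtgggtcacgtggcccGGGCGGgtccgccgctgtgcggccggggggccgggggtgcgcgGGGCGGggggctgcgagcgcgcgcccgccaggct
Aqp3: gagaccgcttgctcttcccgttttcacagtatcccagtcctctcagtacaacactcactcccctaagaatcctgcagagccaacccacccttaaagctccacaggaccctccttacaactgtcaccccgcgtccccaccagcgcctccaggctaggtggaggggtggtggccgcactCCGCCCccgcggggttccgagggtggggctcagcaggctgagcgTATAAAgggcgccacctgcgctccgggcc

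The Tead motif is bound by the partners of the Hippo effector Yap. Its core letters, GGAATG or CATTCC, were in 0 of the 6 examined windows, against 12.6% of all 32851 windows of this length. The short core site of steroid receptors, AGAACA or TGTTCT, was likewise in 0 of 6, against 16.1% of all windows. GC boxes were in 6 of 6, against 32.7% of all windows. The examined windows had a GC content of 60.8% (Scnn1b) to 78.4% (Aqp5), above the median of 52.4% over all windows. Scnn1g held 2 GC boxes, 98 and 67 bases before the start, and Scnn1b 1, 22 bases before it. Cftr held 6, of which 3 overlap in 1 run. Only Aqp3 of the 6 held TATAAA, 29 bases before its start, against 7.59% of all windows. A match of letters describes the window and is not a binding site, and a window without them says nothing of the factor.

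Scnn1a was the highest of the channel subunits in both libraries. It stood at FPKM of 50.7 in the control pool and 86.3 in the pool labelled Mst1/2 D/D, for a ratio of 1.70 (1.64 to 1.77). Of all measured genes, 1.41% had a log2 difference as high as its 0.76. By level it ranked 330 among all gene symbols in the control pool and 192 in the other. It rests on about 4800 and 7309 reads.

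Scnn1g, the gamma subunit, whose extracellular loop is cut by proteases when the channel is activated, had FPKM of 21.5 and 36.3. The ratio of 1.69 (1.59 to 1.80) differed from that of Scnn1a by less than counting error, with a ratio of the ratios of 1.005 (0.936 to 1.08). Scnn1b, the beta subunit, lay between the other subunits in level, at 34.5 and 51.6. Its ratio of 1.496 (1.42 to 1.58) was below that of both others: the ratio of the Scnn1a ratio to it was 1.14 (1.07 to 1.21), and that of the Scnn1g ratio 1.13 (1.04 to 1.23). Scnn1b and Scnn1g, although neighbours, thus differed in ratio beyond counting error, whereas Scnn1a and Scnn1g on different chromosomes did not.

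Scnn1a was 1.47 times the level of Scnn1b in the control pool and 1.67 times in the other. Summed FPKM of the 3 genes was 106.6 in the control pool and 174 in the pool labelled Mst1/2 D/D, 1.63-fold apart. Alpha made up 47.5% and 49.5% of this sum, beta 32.3% and 29.6%, and gamma 20.1% and 20.9%. In both libraries, then, the order was alpha, beta, gamma, with alpha at 2.36 and 2.37 times the level of gamma.

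Genes that act on the channel were taken as a list of 19 genes in the tables, of which 16 passed the filter. None was at least 1.5-fold higher, 2 were lower, and the list median was 0.15. The lower ones were Plunc and Stom. Plunc (now Bpifa1), a secreted airway protein known to inhibit the channel, had the highest control level of the list and the largest difference, with FPKM of 177 and 49.97, 3.53-fold lower (3.33 to 3.75). Plunc is also a product of secretory cells of larger airways. Of 12 measured club cell markers, 4 were lower in the same pool and 1 higher, among the lower ones the secretoglobin Scgb3a1 (477 and 121), with a summed FPKM of 12387 and 10649 and Scgb1a1 listed at 0. The part of these cells in the level of Plunc was not tested. Stom, which encodes the membrane protein stomatin, a regulator of related acid-sensing channels, stood at 11.0 and 6.93.

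Of the proteases that act on the channel, none reached the threshold. Prss8, or prostasin, which releases an inhibitory stretch of the gamma subunit, had FPKM of 21.4 and 24.7, for a ratio of 1.15 (1.06 to 1.25). Furin was at 5.34 and 6.14, and St14, or matriptase, at 7.53 and 6.96. Tmprss2 had the largest positive difference of the list, at 9.47 and 13.9, a ratio of 1.47 (1.34 to 1.61), whose interval overlaps that of Scnn1b. The protease inhibitors Spint1 (25.9 and 27.5) and Spint2 (39.1 and 40.1) were close between the libraries.

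Regulators of channel turnover showed small differences in both directions. Nedd4l, the ubiquitin ligase that removes the channel from the membrane, had FPKM of 7.69 and 9.80. Sgk1, the kinase that restrains this ligase, was at 10.2 and 8.26, a ratio of 0.813 (0.721 to 0.913). The receptor genes through which steroid hormones act on the channel, Nr3c1 (4.49 and 5.41) and Nr3c2 (4.41 and 4.95), did not reach the threshold. Nor did the steroid-induced Tsc22d3 (2.96 and 3.65). The ratio was 1.21 (1.09 to 1.33) for Nr3c1, 1.12 (0.988 to 1.275) for Nr3c2 and 1.23 (0.987 to 1.53) for Tsc22d3. Of other sodium entry genes only 3 of 11 in the tables passed the filter, and 0 differed by 1.5-fold. Slc34a2, the sodium phosphate cotransporter of alveolar type 2 cells, was the highest of them, at 573 and 780.

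Atp1b1, the beta subunit that brings the sodium/potassium ATPase to the membrane, had the highest level of the 9 genes. It lies at chr1:166367398-166388486, where the locus of Nme7 (FPKM 12.99 and 12.95) overlaps it, so reads of the overlap cannot be assigned without strand. Its FPKM of 244 and 264 gave a ratio of 1.08 (1.06 to 1.11). This is close to the median of all measured genes, and 41.1% of them had a difference as high.

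The alternative beta subunit gene Atp1b3 was at 19.2 and 17.4, so Atp1b1 had 12.7 and 15.2 times its level. Of 13 other listed pump genes, 6 passed the filter, with 0 higher, 2 lower and a median of -0.27. The lower ones were small regulators of the pump: Fxyd3 at 12.98 and 7.65 and Fxyd5 at 2.18 and 0.993. Both beta subunit genes differed little where the sodium channel subunits differed by at least 1.496-fold.

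**Figure D2:**
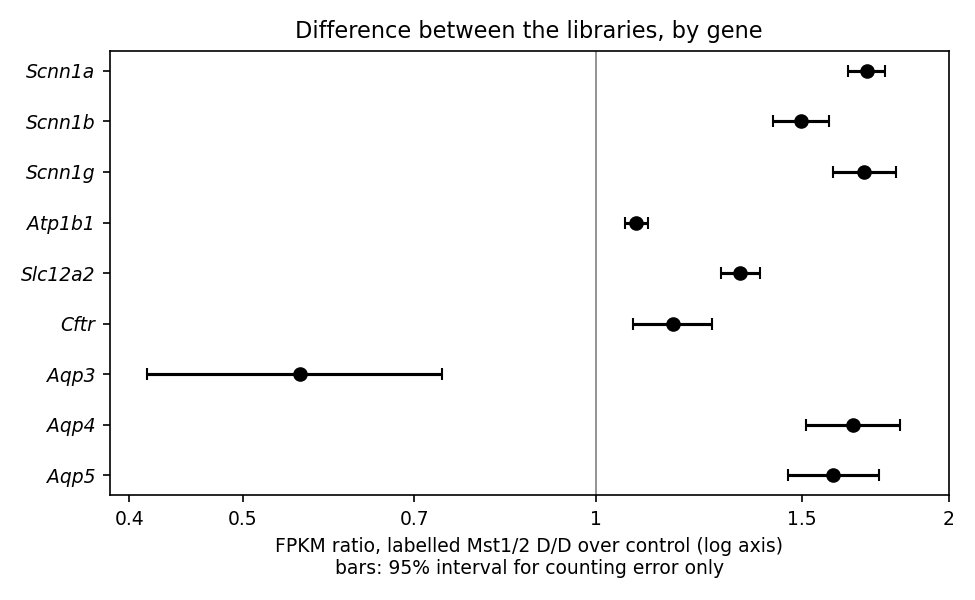
FPKM ratio of each transport gene, labelled Mst1/2 D/D over control, on a log axis; bars are 95% intervals for counting error only and the vertical line marks equal levels. The channel subunits, Aqp4 and Aqp5 lie between 1.496 and 1.70, Atp1b1 at 1.08, and Aqp3 at 0.559 with the widest bar.

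Slc12a2, which loads the cell with chloride, had FPKM of 27.4 and 36.4, for a ratio of 1.33 (1.28 to 1.38). Its log2 difference of 0.40 did not reach the threshold, and 8.07% of measured genes had one as high. Its transcript of 6520 bases is the longest of the 9, and across genes the difference went up slightly with transcript length (Spearman rho 0.17 over genes, which are not independent). Genes of like length had a median difference of 0.11, which leaves 0.28 for Slc12a2.

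Of 15 other genes of cation-chloride cotransport and its kinases, 10 passed the filter and 0 were 1.5-fold apart in either direction on the log2(FPKM + 1) scale, with a median of 0.15. Wnk1, a kinase that senses chloride and salt, had the highest control level, at 19.9 and 22.3. Oxsr1, a kinase that phosphorylates Nkcc1, had the largest positive difference, at 4.17 and 5.53, and Stk39, its relative, was at 4.52 and 4.86. Wnk4 had the largest negative one, at 3.25 and 2.02, which is 1.61-fold lower (1.35 to 1.92) by the plain FPKM ratio. Slc12a7, a cotransporter of potassium with chloride, was close between the libraries, at 3.67 and 3.87.

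Cftr (chr6:18120687-18272769), the cyclic AMP-gated chloride and bicarbonate channel mutated in cystic fibrosis, had FPKM of 7.33 and 8.53. The ratio of 1.16 (1.07 to 1.26) was above 1 by more than counting error, but 27.2% of measured genes had a log2 difference as high as its 0.19. The Scnn1a ratio exceeded the Cftr ratio by 1.46-fold (1.34 to 1.595). Scnn1a thus had 6.91 times the level of Cftr in the control pool and 10.1 times in the other. The Slc12a2 ratio exceeded it by 1.14-fold (1.05 to 1.25).

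Ionocytes are rare airway cells known for very high Cftr levels. Of 9 ionocyte markers other than Cftr, 4 were listed at 0 in both libraries, each with the status OK, among them Foxi1, the transcription factor that defines these cells. Ascl3 was at 0.168 and 0.317. The summed FPKM of the 9 markers was 24.1 and 22.8, most of it from the proton pump gene Atp6v1c2 (21.6 and 19.2). Of the rest only Atp6v0d2 passed the filter, at 2.26 and 3.23, a ratio of 1.43 (1.15 to 1.78).

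Most other measured genes for chloride and bicarbonate differed by less than the threshold, as did all but 5.61% of all measured genes. Of 23 such genes 16 passed the filter, with 0 higher, 1 lower and a median of 0.05. Slc26a9, an apical chloride channel that interacts with Cftr, was the highest, at 29.5 and 32.4, above Cftr itself. Ano1, the calcium-activated chloride channel, was at 7.74 and 8.63. Car2, a carbonic anhydrase, had the largest positive difference without reaching the threshold, at 8.12 and 11.8. Car4, a membrane carbonic anhydrase also found in lung capillary endothelium, was the lower one, at 1.27 and 0.102, which rests on about 45 and 3 reads (ratio 0.0801, 0.0148 to 0.232). Of 8 endothelial markers only Kdr (9.05 and 5.11) and Aqp1 were measured, both lower in the same pool. Of those below the filter, Vwf (0.802 and 0.328) and Pecam1 (0.878 and 0.565) also had less FPKM there. So did Emcn (0.2385 and 0.112) and Tek (0.226 and 0.179), whereas Cdh5 (0.425 and 0.475) and Tie1 (0.0816 and 0.114) did not. The counting intervals of Emcn, Tek, Cdh5 and Tie1 include a ratio of 1. The summed FPKM of this list was 12.8 and 7.16, with none at 0, and its part in the result was not tested.

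Of 17 genes known to act on Cftr 13 passed the filter, 0 were 1.5-fold apart and the median was 0.11. The scaffold gene Slc9a3r2 was the highest, at 38.5 and 46.8, and Slc9a3r1, the scaffold that anchors Cftr, was at 8.59 and 9.11. Ezr, which links these scaffolds to actin, had the largest positive difference, at 34.1 and 44.4. Adora2b, a receptor that raises cyclic AMP, had the largest negative one, at 4.82 and 4.49.

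Aqp5 (chr15:99421459-99425260) was the highest of the aquaporin genes. Its FPKM was 20.3 in the control pool and 32.3 in the pool labelled Mst1/2 D/D, a ratio of 1.59 (1.46 to 1.74), and 2.18% of measured genes had a log2 difference as high as its 0.65. Aqp4 had FPKM of 5.69 and 9.44, for a ratio of 1.66 (1.51 to 1.82). Aqp5 and Aqp4 did not differ in ratio beyond counting error, with a ratio of the ratios of 0.962 (0.848 to 1.09). Both calls ended when the median of all genes was subtracted (0.58 for Aqp5 and 0.57 for Aqp4) and with a pseudocount of 5 (0.56 and 0.43), and that of Aqp4 also after the median of genes of like transcript length was subtracted (0.55).

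Markers of alveolar type 1 cells, of which Aqp5 is one, were higher in the same library. Without Aqp5, 10 of 13 measured markers were at least 1.5-fold higher and 0 lower, none was at 0, and their summed FPKM was 179 and 410. Ager, a membrane receptor that defines these cells, stood at 32.9 and 107. The ratio of Aqp5 was thus below the 2.30-fold of the other markers together. Alveolar cells are also known to express the epithelial sodium channel. Of 12 alveolar type 2 cell markers 11 had a log2 difference above 0, 1 was past 1.5-fold, none was at 0, and their summed FPKM was 18230 and 22127. All 7 measured ciliated cell markers were above 0, 3 past 1.5-fold, with none at 0 and a summed FPKM of 32.6 and 53.7. The part of these 3 cell types in the levels of Aqp5, Aqp4 and the channel subunits was not tested.

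Aqp3 (chr4:41039757-41045216), an aquaporin that also passes glycerol and is known from basal cells of the airway, had the lowest level of the 9. Its FPKM was 3.12 in the control pool and 1.74 in the pool labelled Mst1/2 D/D, 1.79-fold lower (1.35 to 2.41), and 2.59% of measured genes had a log2 difference as low. This rests on about 149 and 74 reads, the fewest of the 9 genes. With a pseudocount of 5 its difference was -0.27, no longer past the threshold, and with a filter at FPKM of 5 it was not measured.

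Of 7 measured basal cell markers other than Aqp3, 6 had a log2 difference below 0, 2 of them past 1.5-fold on the log2(FPKM + 1) scale and 5 by the plain FPKM ratio, and 1 was higher, with none of the list at 0 in both libraries. Krt5, the keratin that defines basal cells, had FPKM of 10.7 and 2.998, and Krt15 had 7.56 and 2.59. Icam1, at 27.4 and 48.0, was the exception and carried the summed FPKM of the list to 51.6 and 56.8. The part of basal cells in the level of Aqp3 was not tested.

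The aquaporin makeup differed between the libraries. Of the summed FPKM of Aqp3, Aqp4 and Aqp5, 29.1 and 43.5, Aqp5 made up 69.7% and 74.3%, Aqp4 19.6% and 21.7%, and Aqp3 10.7% and 4.01%. Aqp5 thus had 6.504 times the level of Aqp3 in the control pool and 18.5 times in the other, 2.85-fold apart (2.13 to 3.82). Of 9 other aquaporin genes only Aqp1, the water channel of endothelium, passed the filter. It stood at 1.07 and 0.280, a ratio of 0.260 (0.152 to 0.442). Aqp12 and Mip were listed at 0 in both libraries.

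**Figure D3:**
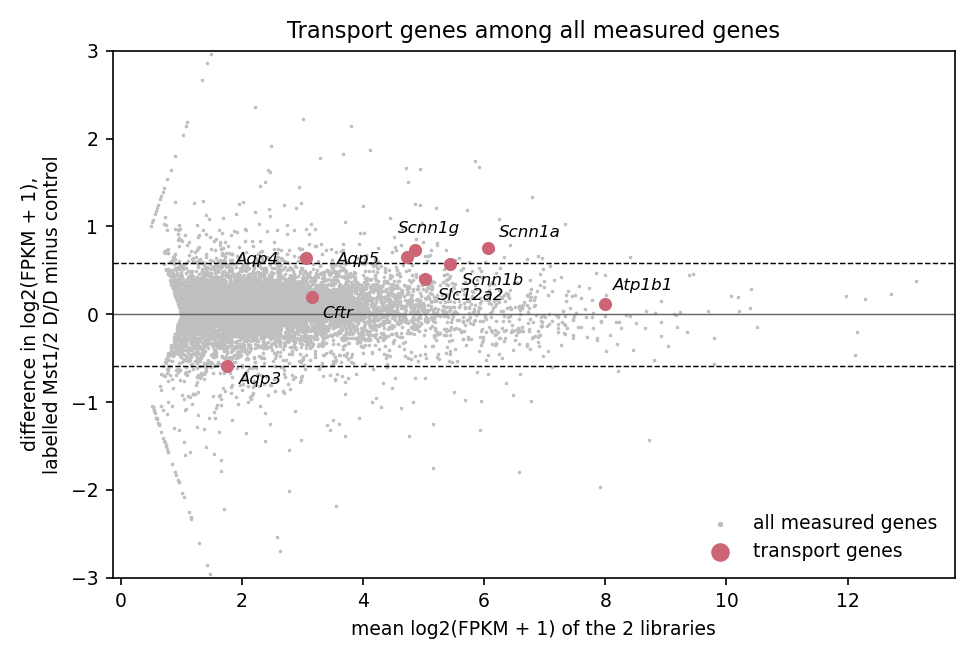
Difference in log2(FPKM + 1), labelled Mst1/2 D/D minus control, against the mean level of the 2 libraries, for 9945 measured genes (grey) and the 9 transport genes (red); dashed lines mark 1.5-fold, and 7 genes lie outside the axis at 3 in either direction. Scnn1a, Scnn1g, Aqp4 and Aqp5 lie above the upper line, Scnn1b just under it, and Aqp3 at the lower line.

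The order of the 9 genes by level was nearly kept. In the control pool it was Atp1b1, Scnn1a, Scnn1b, Slc12a2, Scnn1g, Aqp5, Cftr, Aqp4 and Aqp3, from 244 to 3.12. Scnn1g and Aqp5 did not differ beyond counting error there, with a ratio of levels of 1.06 (0.974 to 1.15). In the pool labelled Mst1/2 D/D, Aqp4 stood above Cftr, with a ratio of 1.11 (1.02 to 1.20), and the other genes kept their places. Slc12a2 and Scnn1g did not differ there, with a ratio of 1.001 (0.956 to 1.05). All other neighbours in the order differed beyond counting error in both libraries.

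Potassium channels return potassium and hold the voltage that drives these flows. Apart from 1 gene, those measured differed by less than the threshold, as did all but 5.61% of all measured genes. Of 16 such genes, 8 passed the filter, with 1 higher, 0 lower and a median of 0.10. The higher one was Kcne2, an accessory subunit of Kcnq1, at FPKM of 5.28 and 10.8, a ratio of 2.04 (1.75 to 2.40). Kcnq1 itself had a ratio of 1.09 (0.913 to 1.31). Kcnj15 had the highest level, at 65.4 and 58.2. Kcnk1 had the largest negative difference, at 23.8 and 17.0, a ratio of 0.712 (0.655 to 0.773).

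Over all 8 lists of other transport genes, 73 of 123 genes in the tables passed the filter, 1 was higher, 6 were lower and the median was 0.09. Over all 9945 measured genes, 3.02% were higher and 2.59% lower, with a median of 0.07. Of the 9 transport genes, 4 were higher and 1 lower, with a median of 0.57. The 9 genes and the lists were chosen with earlier results of these data known, so the counts describe these libraries and carry no test.

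**Figure D4:**
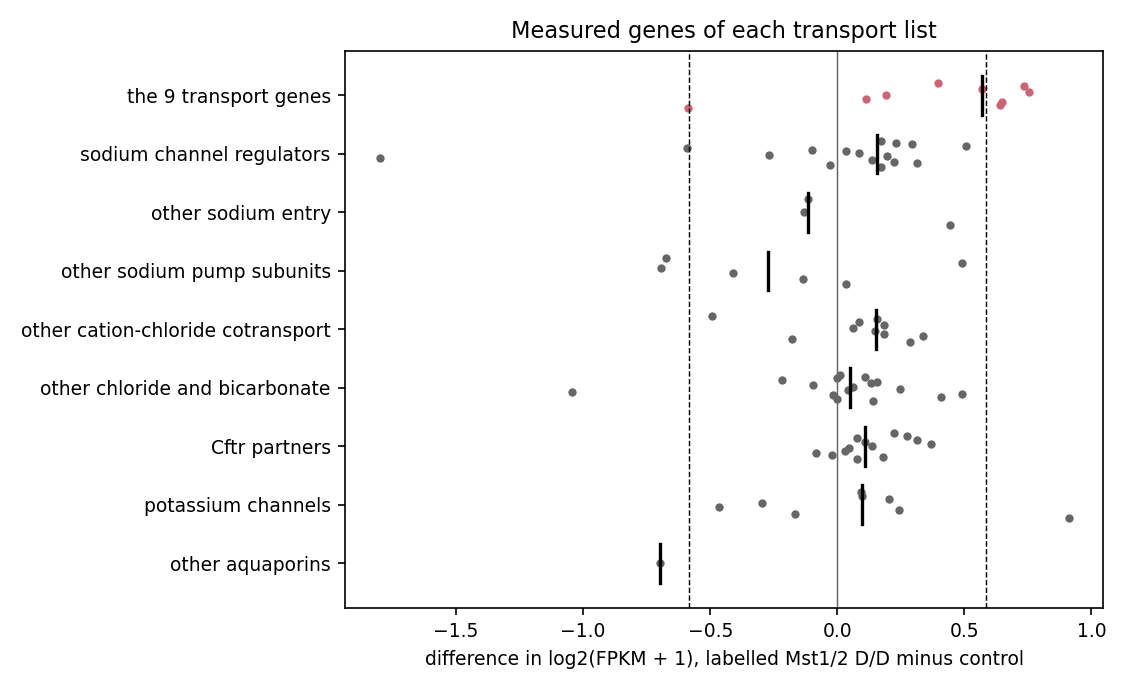
Difference in log2(FPKM + 1), labelled Mst1/2 D/D minus control, of each measured gene in the 9 transport genes (red) and in 8 lists of other transport genes (grey); thick bars are list medians and dashed lines mark 1.5-fold. The median of the 9 genes is 0.57, those of the other lists with more than 1 measured gene lie from -0.27 to 0.15, and Plunc is the point farthest to the left.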

How the data were processed

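RNA-seq tables of 2 pooled libraries of sorted mouse lung epithelium were used, 1 per genotype. TopHat, Cufflinks and mm9 are named in the submitters' processing notes; for versions and settings nothing is given in the sources used here. Each of 28107 rows, per the file headers, holds the authors' FPKM, the transcript length and the authors' coverage, a signal of mean read depth. FPKM was summed per symbol (Python 3.11.15, pandas 2.3.3, scipy 1.17.1). Differences are log2((FPKM + 1) ratio) among genes that reached an FPKM of 1 in either pool.

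Coverage times length, divided by 47.1 bases, gave approximate reads. This size is the median of low single-transcript values between 25 and 75 bases, taken as 1 read. Of values worth 1 to 10 reads, 23.7% and 23.2% lay within 0.1 of a whole read, little more than evenly spread values would give. The read size is thus poorly fixed, the widths of all counting intervals depend on it, and no count test was run. Exact (Clopper-Pearson) 95% intervals of ratios were scaled by the depth ratio of 0.895; those of ratios of ratios use a normal approximation on the log scale. The interval code was tested on simulated independent counts made with the same read size and depth ratio. That test checks the code only, not the read size or the independence of reads. The amplified reads are not independent molecules.

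Named genes were all 9 transport genes and, per list, those 1.5-fold apart, the highest in the control library and the largest difference in each direction; others were named for their role after their values were seen. Some genes of the lists are not reported here by name. The members and lists were chosen with earlier results of these data known. The GC box, TATA and steroid receptor motifs were added after the data were seen. The planned comparison of protein sequences was not run. Start positions of the tables count from 0 (end minus start equals the stated length in 99.7% of 643 microRNA rows) and were converted to count from 1.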

Additional observations from a re-analysis of the deposited data

How the results depend on the processing

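No replicate could be left out and no paired analysis was possible because each genotype has 1 pooled library. The number of higher genes among the 9 was 4 as reported and 2 both with a pseudocount of 5 and after centring on the median of all measured genes. The number of lower genes, 1 as reported, was 0 with a pseudocount of 5 and 0 with a filter at FPKM of 5, which Aqp3 does not pass. The median log2 difference of the 9 genes was 0.43 with a pseudocount of 5, against 0.57. The counts were 4 and 1 with a pseudocount of 0.1 (6.17% and 4.79% of all genes kept), no filter (1.45% and 1.33%), the highest row per symbol (3.70% and 2.85%), TPM (6.79% and 8.79%) or rows with status OK only (2.92% and 2.52%), and 6 and 1 with a threshold of 1.3-fold (8.86% and 5.64%). Subtraction of the median of genes of like transcript length, chosen after seeing the data, gave 3 and 1 (2.41% and 2.97%). With a pseudocount of 5 the shares were 0.845% and 0.684%, and with a filter at FPKM of 5 they were 3.79% and 2.45%. Of 80 single-gene differences under 9 alternatives 0 changed sign and 9 moved by more than counting error.

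Of the other transport genes, 1 was higher and 6 lower as reported. With TPM, where the filter and pseudocount of 1 let in lower genes, these counts were 7 and 10. They were 2 and 8 with a pseudocount of 0.1, 1 and 1 with a pseudocount of 5, and 2 and 6 without a filter. They were 1 and 3 under the FPKM filter of 5, 6 and 9 with a threshold of 1.3-fold, and 2 and 7 with the length median subtracted. With a read taken as 100 bases, the counting intervals of all 9 genes still left out a ratio of 1. Intervals for ratios of ratios and for the order of levels were not recomputed at this size. Depth limits Aqp3 most, at about 74 reads in the pool labelled Mst1/2 D/D.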

Other observations

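Of 33 genes listed nearest to the transport genes in mm9, 16 passed the filter, and 0 of these were 1.5-fold apart on the log2(FPKM + 1) scale. By the plain FPKM ratio 2 were, St7 near Cftr (1.92 and 3.19) and Plekhg6 near Scnn1a (1.11 and 0.688). Ltbr and Tnfrsf1a, which encode receptors of the tumour necrosis factor family, flank Scnn1a at distances of 7469 and 4780 bases. Ltbr had FPKM of 3.31 and 3.76, and Tnfrsf1a 7.38 and 6.68, against 50.7 and 86.3 for Scnn1a. Usp31, on the other side of Scnn1g from Scnn1b, had 1.14 and 1.13, and Cog7, beyond Scnn1b, 2.00 and 2.01. Aqp2 and Aqp6, which lie 6482 and 6570 bases on either side of Aqp5, were near 0, with 0.0564 and 0.0329 for Aqp2 and 0.0693 and 0.194 for Aqp6. Aqp7, a neighbour of Aqp3, had 0.472 and 0.421. These neighbours were named after their values were seen.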
